A study of Mus musculus with 64 samples.

Results

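The genes described here encode the matrix metalloproteinases (Mmp), the membrane proteinases of the ADAM family (Adam), the secreted ADAMTS proteinases (Adamts), their non-catalytic relatives (Adamtsl) and the tissue inhibitors of metalloproteinases (Timp). They were chosen by symbol and by level: of 84 genes in the count table with a symbol of one of these families, 51 had a mean of at least 0.5 CPM (read counts scaled to a common library size) in at least 1 of 16 groups of libraries. Of the 33 others, 16 had no count in any library and 17 stayed under that level. The 51 comprised 14 of 23 Mmp genes, 3 of 4 Timp genes, 17 of 33 Adam genes, 13 of 19 Adamts genes and 4 of 5 Adamtsl genes. In all 16 groups the level was reached by 20 of them, only in mono-culture groups by 5 and only in coculture groups by 6. Genes of the last kinds passed through the culture in which they were high and so had to differ between cultures. The members nearest to the minimum were Adam18, with 0.508 CPM in its highest group, and Adam32, with 0.539 CPM, and the nearest gene outside it was Adam21, with 0.369 CPM.

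The groups are 8 mouse pancreatic tumor cell lines, each in mono-culture or taken from coculture with fibroblasts, with 4 libraries a group and 64 in all. Clones E, H and V form group 1 and clones K, M, N and T form group 2 in the study, which defined these groups by metabolism. KPC1 is in neither. The 7 clones were subcloned from a polyclonal line of a pancreatic tumor of a KPC mouse, which carries among its alleles Trp53 R172H, beside a wild-type allele, and Cre driven by the Pdx1 promoter, so each line stands for 1 clone. The origin and genotype of KPC1 are not given in the sources used here. The labels give the background as C57BL/6 mixed for all lines. Coculture lasted 48 h, after which the tumor cells were sorted by their green fluorescent protein (GFP), a label of the tumor cells. The labels do not say whether the cells in mono-culture were sorted or what the fibroblasts were. Nothing says that the 4 libraries of a group came from separate cultures, so p-values over libraries measure the spread between these libraries, which may be technical.

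Metalloproteinases cleave collagens, proteoglycans, growth factors and receptors at the cell surface and in the matrix around it. Most are made as inactive precursors, and many of these are opened by proprotein convertases or by another proteinase. The TIMPs block the active site of many of them, and TIMP2 also takes part in the activation of MMP2 by the membrane proteinase MMP14. In pancreatic tumors, which are rich in fibroblasts and matrix, both tumor cells and fibroblasts are known to express such genes.

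Library totals ran from 11178721 to 21333683 counts (median 15648010). All 64 libraries were most like another library of the same line and culture. Of the epithelial markers, the keratin gene Krt18 was between 962 and 1532 CPM over the lines in mono-culture and Krt8 between 690.1 and 1270 CPM. By contrast, Epcam, an epithelial adhesion gene, had a mean at or under 0.369 CPM in every line. The other epithelial markers, Krt7 and Krt19 among them, are given only in the sum below. Of 16 fibroblast markers, 15 could be tested; 12 rose and 1 fell in coculture. The summed level of the 16 ran from 363 to 1563 CPM over the lines in mono-culture and from 1057 to 2349 CPM in coculture. Thy1 and Lum were at 0 in every mono-culture library. The sum of 4 defining markers, Dcn, Fap, Postn and Thy1, did not exceed 0.2 CPM in any mono-culture library and was between 14.6 and 154 CPM in the coculture libraries. In bulk libraries, RNA of a few fibroblasts and a change within tumor cells cannot be told apart, and the part of the fibroblast markers in the results that follow was not tested. Of 8 epithelial markers, 1 rose and 3 fell, and their summed level ran from 2426 to 3795 CPM in mono-culture and from 1869 to 3436 CPM in coculture.

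Levels can be compared between genes only per length, and the RPKM values of the deposited table (reads scaled by gene length and library total) were used for that purpose. Timp2, an inhibitor, was the highest of the 51 genes in RPKM, with a mean over the 8 lines of 261 ± 85.3 RPKM (SD, n = 8 lines) in mono-culture and 161 ± 70.4 RPKM in coculture. It was followed by Adam9 with 47.5 ± 10.7 and 61.7 ± 16.6 RPKM, Adam10 with 58.03 ± 10.5 and 43.7 ± 10.6 RPKM, Timp1 with 27.5 ± 11.996 and 38.3 ± 12.5 RPKM and the membrane collagenase gene Mmp14 with 24.95 ± 21.2 and 24.7 ± 15.4 RPKM. Adam9 and Adam10 did not differ beyond their spread over the lines. Secreted collagenase and stromelysin genes were much lower in RPKM: the means over the lines in mono-culture were 1.59 ± 1.77 RPKM for Mmp13 and 0.827 ± 0.780 RPKM for Mmp3.

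**Figure D1:**
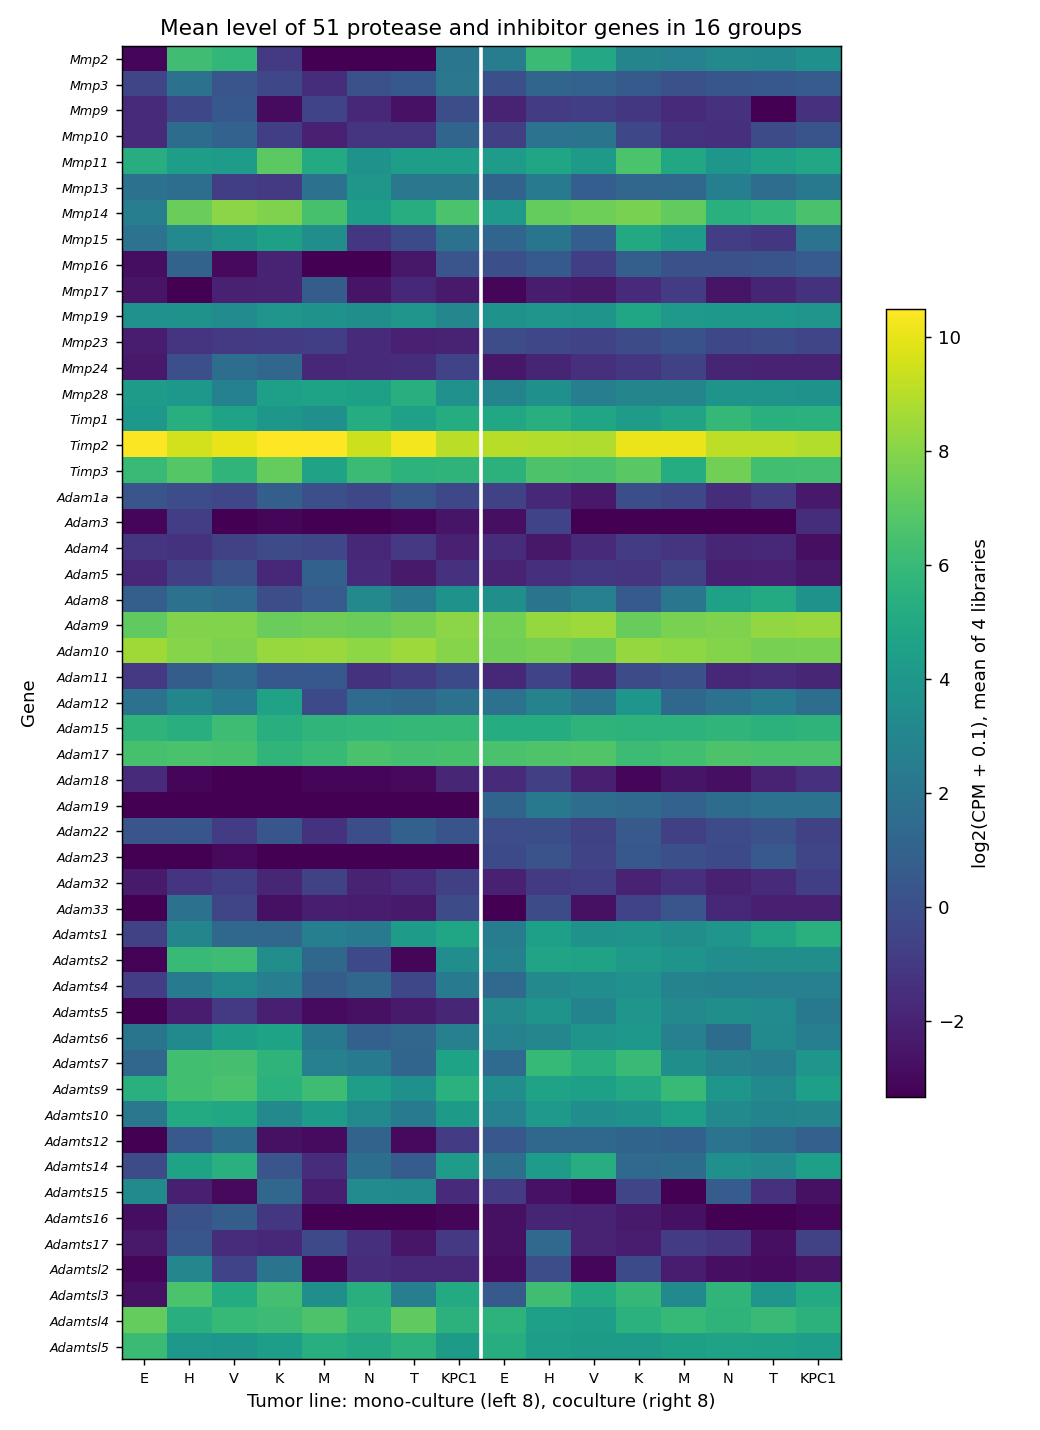
Mean level of the 51 genes (rows, grouped by family) in 8 lines in mono-culture (left 8 columns) and coculture (right 8 columns), as log2(CPM + 0.1) of the mean of 4 libraries. Timp2 is the brightest row in every column, and Adam19 is dark in all mono-culture columns and above 1.9 CPM in all coculture columns.

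The first question was how far the lines differed in mono-culture. Of the 49 genes with enough counts for the fit on single libraries, 46 differed between the 8 lines (edgeR quasi-likelihood test, joint over lines, adjusted p-value under 0.1). Of all genes tested, 95.1% did, so this share is near the background. The genes that did not differ were Adam19, Adam23 and Adamts5, all at or near 0 in mono-culture. The median range over the lines of mean log2 CPM was 3.82 for the 49 genes, beside 1.22 for all 14134 genes. In coculture the medians were 2.26 and 1.20. The range was narrower than in mono-culture for 39 of the 49 genes (79.6%), beside 57.5% of all genes. The members were chosen by their highest group and were not matched in level to all genes, so nothing is read from these differences.

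Mmp2, which encodes a gelatinase, had the widest range in mono-culture, 11.20 on the log2 scale. Its 4 libraries of clone H had 70.7, 88.0, 72.4 and 71.5 CPM in mono-culture, and those of clone V had 61.3, 65.0, 47.3 and 55.4 CPM. It was at 0 in all mono-culture libraries of clones M, N and T, at 0.0134 CPM on average in E, 0.410 in K and 4.16 in KPC1. The libraries of H and V did not overlap with those of any other line. Adamts2, a procollagen N-proteinase, was likewise highest in these clones, with 75.1 ± 15.6 CPM (SD, n = 4 libraries) in V and 63.4 ± 10.6 in H, 11.4 ± 3.71 in K, 11.1 ± 4.72 in KPC1 and under 3 CPM in M, N, E and T. V and H did not differ beyond their spread, and neither did K and KPC1. Adamts14, another procollagen N-proteinase, had 43.9 ± 7.24 CPM in V, 25.7 ± 3.67 in H and 19.5 ± 4.83 in KPC1, and between 0.233 and 3.05 CPM in the other lines.

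Mmp14 had its highest mono-culture levels in V (269.8 ± 8.43 CPM) and K (227 ± 29.4 CPM) and its lowest in E (5.92 ± 0.452 CPM). The 4 libraries of E had 5.53, 6.47, 5.57 and 6.10 CPM and those of V had 272, 261, 280 and 265 CPM. Thus E was low for Mmp14, Mmp2 and Adamts2, although the study places it in group 1 with H and V. E also had 0.0551 CPM of Adamtsl3, an ADAMTS-like matrix protein gene, which was at 97.4 ± 12.9 CPM in H and 82.1 ± 17.3 in K.

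Other genes were high in 1 or a few lines. Adamtsl2, whose product binds fibrillin, was at 8.20 ± 4.06 CPM in H and 3.93 ± 1.27 in K and under 0.6 CPM in the others. Clone K had the highest mono-culture levels of Mmp15, a membrane metalloproteinase, at 23.1 ± 2.79 CPM, where N had 0.358 ± 0.159 and T 0.770 ± 0.407. K also had the highest levels of Mmp11 (127.9 ± 18.7 CPM), Adam12 (25.02 ± 4.77 CPM) and Adamts6 (25.5 ± 8.70 CPM), and the interstitial collagenase gene Mmp13 was highest in N (15.7 ± 6.59 CPM). Adamts15 was at 9.97 ± 10.7 CPM in N, 9.66 ± 3.30 in T and 9.22 ± 1.96 in E, at 2.30 ± 1.81 in K and under 0.3 CPM in H, V, M and KPC1. In N its 4 libraries had 10.4, 24.9, 1.68 and 2.92 CPM, a spread as large as the mean. Adam33, Adamts12 and Mmp16 reached at most 3.46 CPM (H), 2.80 CPM (V) and 1.97 CPM (H) in mono-culture and were at 0 in at least 1 line. By contrast, the sheddase genes Adam9, Adam10, Adam15 and Adam17 and the inhibitor gene Timp2 spanned 0.96, 0.77, 0.80, 0.84 and 1.43 on the log2 scale.

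**Figure D2:**
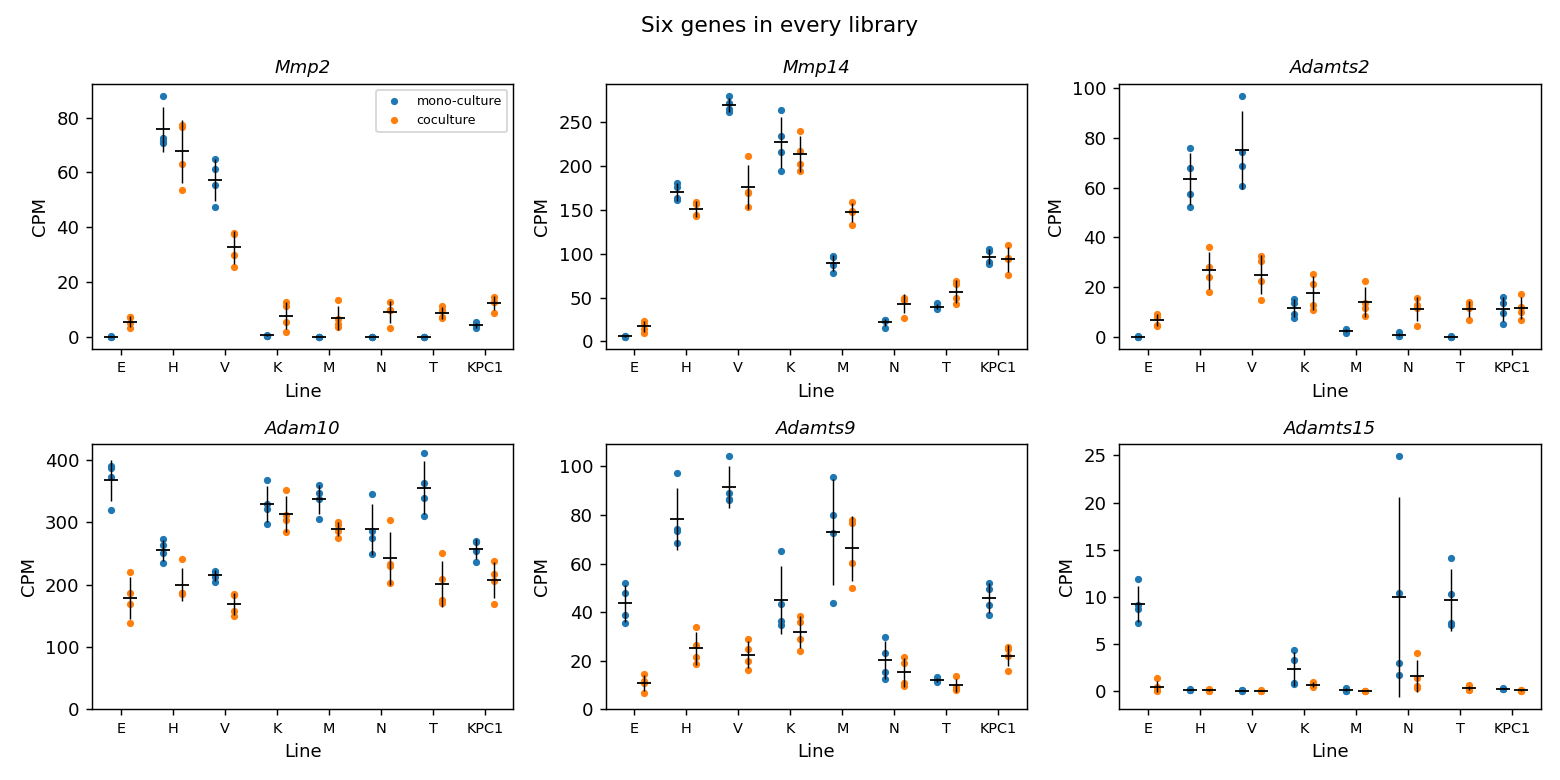
CPM of Mmp2, Mmp14, Adamts2, Adam10, Adamts9 and Adamts15 in every library of 8 lines in mono-culture (blue) and coculture (orange). Points are libraries, and black marks and bars are the mean and SD of 4 libraries. Mmp2 and Adamts2 are high in H and V in mono-culture, and the lines lie closer together in coculture.

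The study's metabolic groups were compared in mono-culture on 1 sum of counts per clone, 3 clones of group 1 against 4 of group 2. None of the 43 genes that could be tested passed (edgeR quasi-likelihood test, smallest adjusted p-value 0.888), and neither did any of all 14829 genes (0%). At an unadjusted p-value under 0.05 there were 3 of the 43 genes, Mmp2, Mmp10 and Adamts14, and 766 of all genes. DESeq2 called 1 of these genes, Adamts14, with 3.97 on the log2 scale for group 1 over group 2 (adjusted p-value 0.0452). Without clone E, 4 were called by edgeR, namely Mmp2, Mmp10, Adamts14 and Adam33, all higher in H and V, with differences between 2.91 and 9.35 on the log2 scale, against 1.42% of all genes. Of the 43 genes, the levels of 1 did not overlap between the groups, beside 5.52% of all genes. That gene was Mmp28, which encodes an epithelial metalloproteinase. It had 6.56, 16.5 and 19.7 CPM in V, H and E and between 21.997 and 40.5 CPM in the clones of group 2 (log2 difference -0.96, SE 0.41, adjusted p-value 0.888).

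The coculture response common to the lines was tested on the 16 sums, with the line as a covariate. All 51 genes passed the filter on low counts. Of them, 30 passed the test, beside 52% of the 16246 genes tested: 16 were higher in coculture, beside 26.8% of all genes, and 14 were lower, beside 25.2%. The share of called genes was thus near that of all genes in both directions. The median log2 change was 0.14 for the 51 genes and 0.01 for all genes. By family, 4 Mmp genes rose and 2 fell, 1 Timp gene rose and 1 fell, 6 Adam genes rose and 6 fell, 5 Adamts genes rose and 3 fell, and 2 Adamtsl genes fell. The other 21 genes did not pass. In 8 of 8 lines the level was higher in coculture for 10 genes (all genes 13.7%) and lower for 7 (all genes 11.9%). Of the 10, Adam18, Adam19, Adam23, Adamts5 and Mmp23 had reached the minimum in coculture groups alone. Of the 7, Adam4 had reached it in mono-culture groups alone. The former are also among the 16 called higher, and Adam4 and Adamts16, likewise of mono-culture groups alone, among the 14 called lower. The choice of members favored these directions.

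Among the inhibitors, Timp2 fell and Timp1 rose. Timp2 (chromosome 11, 118301069 to 118355740, minus strand, in the GENCODE M21 annotation of GRCm38, as are the positions that follow) had a lowest, median and highest library of 492, 1171 and 1588 CPM in mono-culture and of 391, 525 and 1239 CPM in coculture. The libraries of the cultures overlapped in N and KPC1 and in none of the other 6 lines. In E, mono-culture gave 1348, 1276, 1394 and 1498 CPM and coculture 397, 720, 535 and 391 CPM. Timp2 was lower in coculture in 8 of 8 lines and fell by 0.72 on the log2 scale in the common fit (SE 0.15, adjusted p-value 0.00451). Within lines it fell in 6, by between 0.38 in N and 1.44 in E, and gave -0.37 in K and -0.17 in KPC1. With the replicate numbers as a block, Timp2 also fell in K, whose numbers were not taken as pairs. Coculture levels were near 500 CPM in 6 lines, between 457 in V and 555 in N, whereas K and M stayed at 1103 ± 141 and 1083 ± 68.1 CPM (SD, n = 4 libraries).

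Timp1 (chromosome X, 20870166 to 20874735, plus strand) had a mean over lines of 26.4 ± 11.5 CPM in mono-culture and 36.6 ± 12.4 CPM in coculture, and was higher in coculture in 7 of 8 lines. It rose by 0.53 on the log2 scale (SE 0.13, adjusted p-value 0.00978). Within lines it rose in E, M, N and T, by between 0.60 and 1.16, and gave -0.06 in H. Timp3 (chromosome 10, 86300372 to 86349506, plus strand), whose product stays bound to the matrix, did not pass the common test (log2 change 0.43, SE 0.20, adjusted p-value 0.11). Leaving out E, H or K, or replicate 4, put it past the threshold. Within lines it rose in V, N, T and KPC1, most in N, from 68.7 ± 23.8 to 185.8 ± 67.2 CPM. Exons of Timp3 overlap those of Syn3 on the other strand over 21.3% of their length, and the counting is not stated to use strand.

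**Figure D3:**
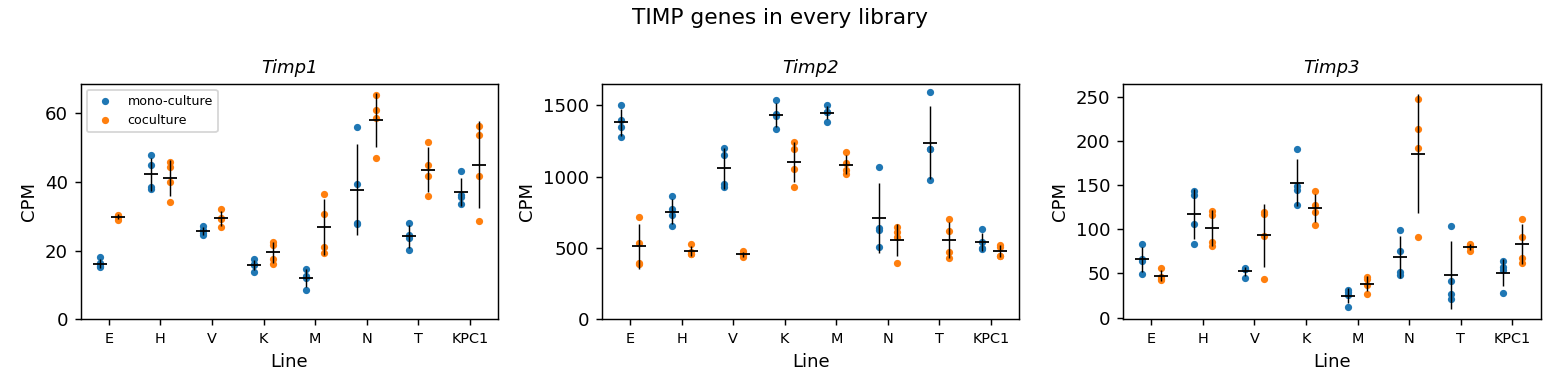
CPM of Timp1, Timp2 and Timp3 in every library of 8 lines in mono-culture (blue) and coculture (orange). Points are libraries, and black marks and bars are the mean and SD of 4 libraries. Timp2 lies lower in coculture in every line, least in KPC1.

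The widely expressed ADAM sheddases, which release growth factors and receptors from the cell surface, moved in different directions. Adam10 (chromosome 9, 70678997 to 70780229, plus strand) had a lowest, median and highest library of 204, 301 and 412 CPM in mono-culture and of 139, 213 and 353 CPM in coculture. It was lower in 8 of 8 lines and fell by 0.42 on the log2 scale (SE 0.11, adjusted p-value 0.0113), most in E and T, by 1.05 and 0.84. Their libraries did not overlap between cultures: E had 387, 320, 390 and 373 CPM in mono-culture and 169, 220, 186 and 139 CPM in coculture. Adam9 (chromosome 8, 24949611 to 25016927, minus strand) rose by 0.36 (SE 0.08, adjusted p-value 0.00483), from 202 ± 45.5 to 262 ± 74.0 CPM over the lines, and was higher in 7 of 8, the exception being K with -0.06. Adam17, the tumor necrosis factor converting enzyme, was higher in 8 of 8 lines, but only by 0.18 (SE 0.06, adjusted p-value 0.0242), from 82.0 ± 14.9 to 91.8 ± 12.4 CPM. Adam15 fell by 0.20 (SE 0.08, adjusted p-value 0.0622), and this call was lost without E, H, V or T or without replicate 4. Exons of Adam15 overlap those of 4731419I09Rik on the other strand over 20.6% of their length.

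The genes with the largest rise were at or near 0 in mono-culture. Adam19 (chromosome 11, 46055992 to 46147343, plus strand), a membrane sheddase, had no count in any of the 32 mono-culture libraries and a lowest, median and highest library of 0.604, 2.996 and 6.33 CPM in coculture. Clone H had 1.58, 5.08, 6.33 and 6.19 CPM and clone M 0.689, 1.23, 3.02 and 2.73 CPM in coculture. Taking 3 counts over the 4 mono-culture libraries of a line as the floor, Adam19 was at least 42.3-fold higher in coculture in M and at least 103-fold higher in H, with the other lines between these bounds. It passed in 8 of 8 lines and in the common test (adjusted p-value 0.00154).

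Adam23, which lacks a working catalytic site, was at 0 in 30 of 32 mono-culture libraries and had a median of 0.800 CPM in coculture. It was at least 11.6-fold (N) to at least 29.6-fold (T) higher in the 7 lines with no count in mono-culture. Adamts5, an aggrecanase gene, had a median library of 0.0693 CPM in mono-culture and 7.75 CPM in coculture, where the libraries ran from 1.27 to 30.3 CPM. It rose by 6.43 on the log2 scale (SE 0.53, adjusted p-value 6.52e-05) and in 8 of 8 lines, and in E it was at 0 in mono-culture and at 5.65, 5.19, 13.6 and 11.98 CPM in coculture. Adamts1, its neighbor 53060 bases away on chromosome 16, rose by 1.64 (SE 0.32, adjusted p-value 0.00387), from 9.18 ± 10.1 to 18.95 ± 11.9 CPM over the lines. The coculture levels of 4 of the 51 genes, Adam19, Adam23, Adamts5 and Mmp23, lay above the mono-culture levels of all 8 lines (all genes 1.45%). These 4 reached the minimum of 0.5 CPM in coculture groups alone, so the choice of members favored this pattern, and nothing is read from their share. Mmp23 went from 0.289 ± 0.147 CPM in mono-culture to 0.770 ± 0.141 CPM in coculture. For 0 genes did they lie below the mono-culture levels of all lines, beside 0.0308% of all genes.

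Levels of these genes were also compared between coculture libraries that differed in fibroblast markers. In each line, the coculture library with the highest sum of Dcn, Fap, Postn and Thy1 (between 80.3 and 154 CPM) was set beside the one with the lowest (between 14.6 and 52.2 CPM). The library with the lowest sum was replicate 1 in 6 of 8 lines, so the marker sum and the replicate number cannot be told apart there. The first library had the higher level in 8 of 8 lines for Adam19, Adam23, Adamts5, Mmp23, Adamts1 and Adamts12, of which the first 4 had reached the minimum in coculture alone. That was 6 of the 51 genes (11.8%), beside 2.61% of all 16246 genes. The choice of members favored genes high in coculture, so nothing is read from this share. The median ratio between these libraries was 4.18 for Adam19, 3.50 for Adam23, 3.49 for Adamts5, 3.28 for Adamts12, 2.57 for Mmp23 and 2.30 for Adamts1. For Timp2 it was 1.03 with 4 of 8 lines higher, for Adam10 1.12 with 5 of 8, and for Timp1 0.97 with 2 of 8. For Timp3 it was 1.37 with 7 of 8. A tally of 7 of 8 was also found for Adam15, Adamtsl3 and Adamtsl5, with ratios of 1.14, 1.22 and 1.28. Tallies under 8 of 8, here and below, were not made over all genes, so nothing is read from them. The means over the lines of the markers Thy1 and Postn went from 0 and 0.0104 CPM in mono-culture to 11.6 and 52.8 CPM in coculture. Their part in the rise of these genes was not tested.

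**Figure D4:**
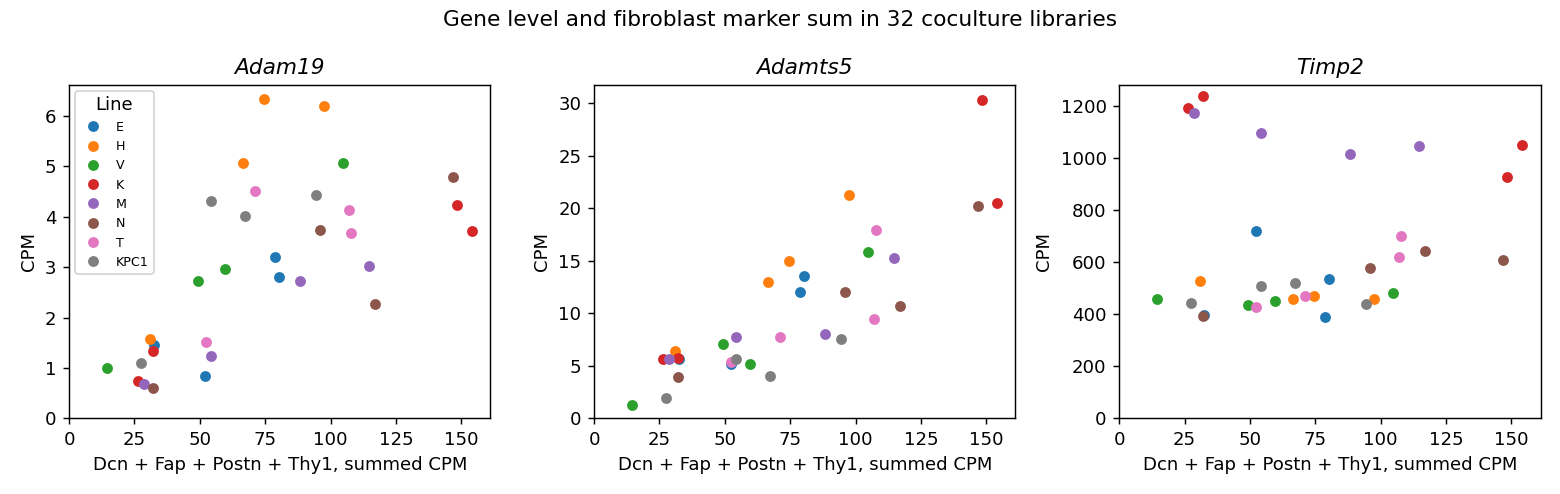
Level of Adam19, Adamts5 and Timp2 (CPM, y axes) against the summed CPM of the fibroblast markers Dcn, Fap, Postn and Thy1 (x axes) in the 32 coculture libraries, colored by line. In each line Adam19 and Adamts5 are higher in the library with the highest sum than in the one with the lowest, and Timp2 is higher in K and M than in the other lines at low and high sums.

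The Adam19 promoter is shown because Adam19 had no count in mono-culture, and those of Mmp3, Mmp10 and Mmp13 because they hold the same motif. The last 3 are neighbors on chromosome 9, with 162491 bases between Mmp13 and Mmp3 and 46377 between Mmp3 and Mmp10. The motif searched was TGAGTCA or TGACTCA, which are the same site read on either strand and the known binding sequence of AP-1 factors, and it is in capitals. RefSeq promoters (GRCm38.p6, 250 bases before to 50 bases after the start site) were matched for 30 of the 51 genes, and 4 of these (13.3%) held the motif, beside 5.95% of 27025 genes. It was in 1 of 9 genes that rose, 0 of 9 that fell and 3 of 12 that did not pass. A match is a description of the letters and not a binding site. The 4 promoters lie on the plus strand at chr11:46055734-46056033 (Adam19), chr9:7445572-7445871 (Mmp3), chr9:7502092-7502391 (Mmp10) and chr9:7272264-7272563 (Mmp13), and the motif begins at positions -131, -46, -63 and -35 relative to the start site.
Adam19: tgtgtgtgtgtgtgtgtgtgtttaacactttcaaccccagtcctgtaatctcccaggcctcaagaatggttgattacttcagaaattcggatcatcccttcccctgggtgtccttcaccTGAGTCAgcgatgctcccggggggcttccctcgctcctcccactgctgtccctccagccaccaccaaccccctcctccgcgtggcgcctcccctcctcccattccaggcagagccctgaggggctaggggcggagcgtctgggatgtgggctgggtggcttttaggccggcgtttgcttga
Mmp3: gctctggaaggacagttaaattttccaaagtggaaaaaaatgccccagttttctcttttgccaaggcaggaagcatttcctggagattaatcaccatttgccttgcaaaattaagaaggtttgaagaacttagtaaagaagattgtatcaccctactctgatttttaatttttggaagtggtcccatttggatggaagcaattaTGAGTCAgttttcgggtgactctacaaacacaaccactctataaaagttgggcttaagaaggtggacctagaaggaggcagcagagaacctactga
Mmp10: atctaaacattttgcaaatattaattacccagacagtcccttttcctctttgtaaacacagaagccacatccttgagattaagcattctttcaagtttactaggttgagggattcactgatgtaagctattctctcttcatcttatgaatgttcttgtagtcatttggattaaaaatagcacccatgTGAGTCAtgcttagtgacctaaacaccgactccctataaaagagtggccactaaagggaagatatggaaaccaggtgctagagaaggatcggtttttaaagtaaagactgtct
Mmp13: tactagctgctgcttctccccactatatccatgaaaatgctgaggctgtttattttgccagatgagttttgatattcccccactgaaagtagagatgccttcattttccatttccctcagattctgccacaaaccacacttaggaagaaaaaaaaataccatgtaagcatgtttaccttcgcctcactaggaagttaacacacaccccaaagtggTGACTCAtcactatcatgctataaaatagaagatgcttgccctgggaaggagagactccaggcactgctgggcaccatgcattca

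Of these, Mmp3, a stromelysin gene, ran from 0.245 CPM (M) to 4.43 CPM (KPC1) in mono-culture and from 0.920 to 2.17 CPM in coculture. It rose in M and fell in KPC1. Mmp10, another stromelysin gene, stayed at or under 3.84 CPM in every group and rose in V and T. Mmp13 fell in N, from 15.7 ± 6.59 to 6.08 ± 2.64 CPM, and rose in V and K, from 0.494 ± 0.362 and 0.405 ± 0.0643 to 1.66 ± 0.432 and 2.27 ± 0.846 CPM. None of the 3 passed the common test.

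Other aggrecanase and sheddase genes rose from levels above 0. Adamts4, an aggrecanase gene, rose by 1.46 on the log2 scale (SE 0.32, adjusted p-value 0.00606), from 3.79 ± 3.11 to 7.71 ± 3.11 CPM over the lines. It was higher in the library with the highest fibroblast marker sum in 7 of 8 lines, with a median ratio of 1.79. Adam8, a sheddase first known from leukocytes, rose by 1.35 (SE 0.33, adjusted p-value 0.00993), most in E and T. It was lower in the library with the highest marker sum than in the one with the lowest in 7 of 8 lines. The median ratio was 0.75. The library with the lowest sum was replicate 1 in 6 of 8 lines, and the tally was not made over all genes. Of 3 leukocyte markers, Cd68 rose by 1.39 (SE 0.34, adjusted p-value 0.00992), from 10.8 to 27.4 CPM, whereas Ptprc and Itgam, too low to be tested, were at or under 0.119 and 0.063 CPM on average in every line. The summed level of the 3 ran from 3.90 to 18.5 CPM in mono-culture and from 11.7 to 40.9 CPM in coculture, and its part in the rise of Adam8 was not tested. Mmp19 rose by 0.45 (SE 0.12, adjusted p-value 0.0120), and both Adam8 and Mmp19 were higher in 8 of 8 lines. Exons of Mmp19 overlap those of Gm47093 and Tmem198b on the other strand over 28.3% of their length. Adamts12 and Mmp16 rose by 2.72 (SE 0.84, adjusted p-value 0.0251) and 2.87 (SE 0.79, adjusted p-value 0.0156), although Adamts12 did not pass in H, V and N nor Mmp16 in H and KPC1. Mmp16 was higher in the library with the highest marker sum in 6 of 8 lines, with a median ratio of 2.35. Adam18 also passed (log2 change 1.80, SE 0.57, adjusted p-value 0.0271), at levels of at most 0.508 CPM, and was not tested within lines.

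Of the genes that fell, Adamts15 had the largest change, -3.11 on the log2 scale (SE 0.50, adjusted p-value 0.00182). In T it went from 7.25, 10.3, 7.04 and 14.1 CPM to 0.394, 0.131, 0.0626 and 0.590 CPM, with no overlap, and it fell in E, K, N and T, the lines with at least 2.30 CPM in mono-culture. Adamtsl2 fell by 2.19 (SE 0.58, adjusted p-value 0.0136), in H from 8.20 ± 4.06 to 0.909 ± 0.684 CPM and in K from 3.93 ± 1.27 to 0.773 ± 0.531 CPM. Adamtsl4, which like Adamtsl2 is known as a fibrillin-binding protein, fell by 0.81 (SE 0.18, adjusted p-value 0.00683), from 82.7 ± 42.1 to 45.4 ± 16.2 CPM over the lines. Mmp28 fell by 0.91 (SE 0.22, adjusted p-value 0.00913), from 20.8 ± 10.03 to 10.4 ± 3.54 CPM. Adamts9, described with the groups below, was also called lower, with changes between -1.14 and -0.87 when a line or replicate was left out. Adam1a, Adam4, Adam5, Adam11, Mmp24 and Adamts16 also fell, all from means over the lines of at most 1.10 CPM. Exons of Adam1a overlap those of Mapkapk5 and Gm42878 on the same strand over 87.7% of their length, so its counts are uncertain. The calls of Adamts16, Mmp24 and Adam5 were lost without H or V, that of Adamts16 also without K, that of Mmp24 without K, KPC1 or replicate 4, and that of Adam5 without M, KPC1, replicate 2 or replicate 3.

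**Figure D5:**
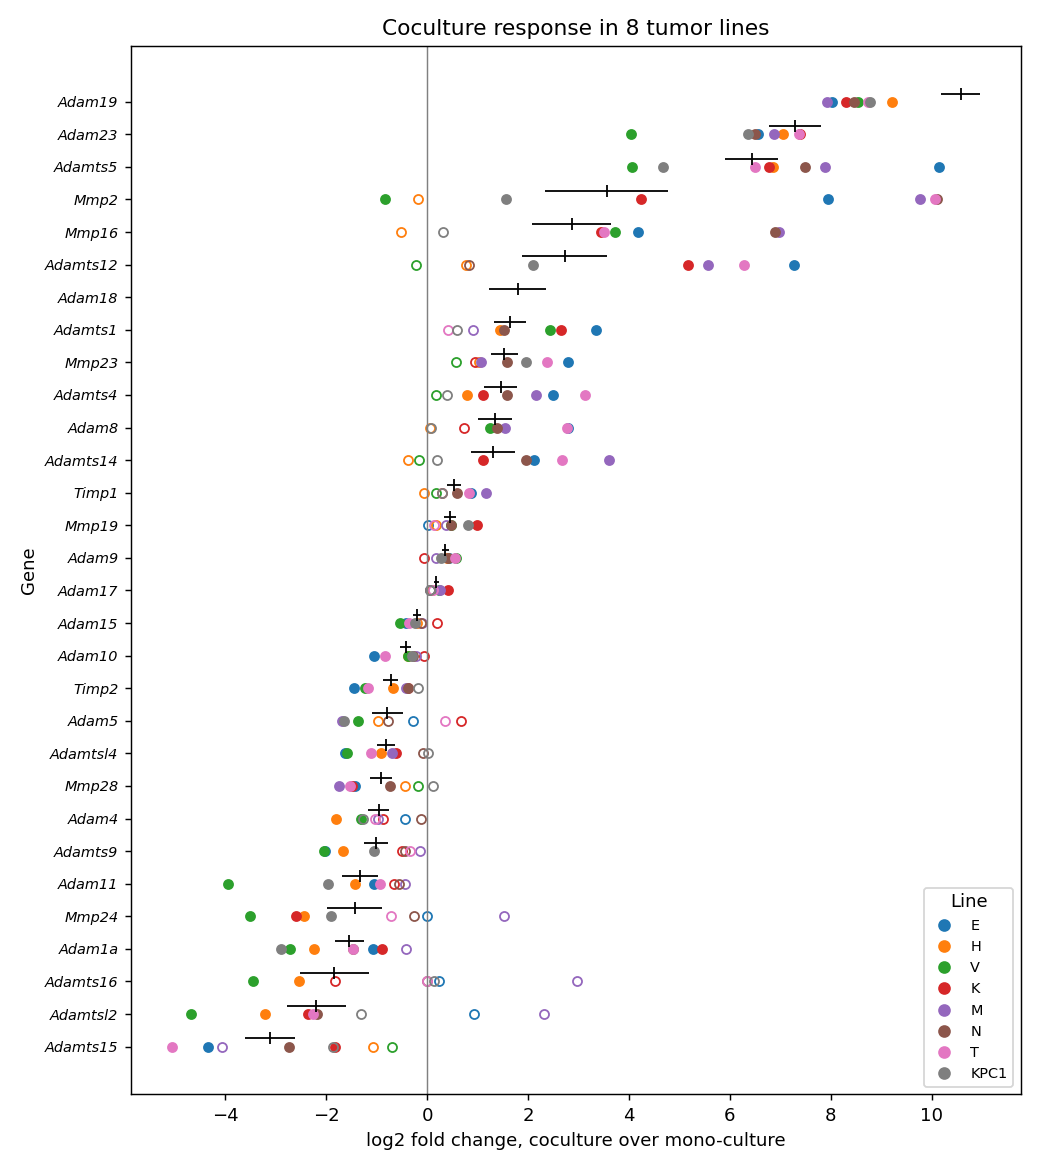
log2 fold change of coculture over mono-culture for the 30 genes called in the common test. Colored points are single lines (filled where the adjusted p-value was under 0.1, open otherwise), and black marks and bars are the common estimate and its SE. Adam18 has the common estimate alone. Points right of 7 rest on mono-culture levels at or near 0, where the fitted fold depends on the prior count.

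The lines did not respond alike. Within lines, the numbers of the 49 genes that rose and fell were 17 and 12 in E (all genes 32.1% and 29.2%), 9 and 14 in H (21.4% and 22.6%), 12 and 21 in V (30% and 31.5%), 14 and 9 in K (12.5% and 8.02%), 19 and 6 in M (21.6% and 17.3%), 17 and 8 in N (20% and 17.4%), 20 and 12 in T (31.5% and 30.7%) and 10 and 13 in KPC1 (20.1% and 19%). The median log2 change of the 49 genes was lowest in V, -0.34, and highest in M, 0.63, where the medians of all genes were -0.01 and 0.01. In V, M and N the libraries of the cultures could be paired by their numbers. With the pairs as a block, the calls were 12 and 21 in V (all genes 31.2% and 33.2%), 23 and 7 in M (23.8% and 20.1%) and 19 and 8 in N (22.9% and 19.7%). In M, Timp3, Mmp19, Adamts6 and Adamts1 then rose and Adam10 fell, and in N, Adamts7 and Adamts12 rose, Adamts9 fell and the call of Adamtsl2 was lost. The response differed between lines for 40 of the 49 genes, beside 71.3% of all genes (joint interaction test, adjusted p-value under 0.1). In 13 of the 49 genes (26.5%) at least 1 line rose and another fell, beside 17.8% of all genes.

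The smallest p-values for such a difference belonged to Adamts2, Mmp2, Adamts14, Mmp14 and Mmp15. Adamts2 fell in V, from 68.8, 74.3, 60.5 and 97.0 to 22.4, 30.3, 14.9 and 32.4 CPM, and in H by 1.27 on the log2 scale, and rose in E, M, N and T. In T it went from 0, 0.0539, 0 and 0 to 13.1, 6.50, 11.5 and 13.8 CPM. The groups did not overlap in either line (adjusted p-value of the difference in response 3.93e-17). Mmp2 fell in V, from 57.2 ± 7.72 to 32.7 ± 6.03 CPM, gave 75.7 ± 8.26 and 67.6 ± 11.5 CPM in H and rose in the other 6 lines, to between 5.48 CPM in E and 12.2 CPM in KPC1. In M, N and T, with no count in mono-culture, it was at least 154-fold, 146-fold and 192-fold higher in coculture. Mmp2 was higher in the coculture library with the highest fibroblast marker sum in 7 of 8 lines, with a median ratio of 1.84, and Adamts2 in 7 of 8, with 2.05. These tallies were not made over all genes, and the library with the lowest sum was replicate 1 in 6 of 8 lines. The part of the markers in these changes was not tested.

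Mmp14 rose in E, M, N and T, by between 0.50 and 1.53 on the log2 scale, fell by 0.63 in V and gave -0.20, -0.08 and -0.04 in H, K and KPC1. In E it went from 5.92 ± 0.452 to 17.1 ± 6.50 CPM and in V from 269.8 ± 8.43 to 176 ± 24.6 CPM. In the common test it did not pass (adjusted p-value 0.204) but did without V. It was higher in the library with the highest marker sum in 7 of 8 lines, with a median ratio of 1.31. Adamts14 rose in E, K, M, N and T, by between 1.10 and 3.60, and gave -0.38, -0.16 and 0.19 in H, V and KPC1, whose levels were highest in mono-culture. Mmp2 and Adamts14 were called higher in the common test. With a line or replicate left out, their common changes were between 2.96 and 4.62 and between 1.04 and 1.58. Mmp15 fell in V, from 14.1 ± 4.89 to 1.64 ± 0.359 CPM, and in E, H and T, and rose in M, from 11.3 ± 1.01 to 19.8 ± 5.60 CPM. Adamtsl3 rose in E, from 0.0551 to 1.36 ± 0.605 CPM, and in T, and Adam33 rose in K and M and fell in H, V and KPC1.

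Group 1 and group 2 differed in their coculture response for 1 gene of all 16172 tested (0.00618%), and that gene was among the 51. Adamts9, which encodes a versican-cleaving proteinase, fell by 2.02, 1.67 and 2.05 on the log2 scale in E, H and V, and gave -0.49, -0.14, -0.44 and -0.33 in K, M, N and T, none of which passed alone. With the replicate numbers as a block, Adamts9 also fell in N, and in K, whose numbers were not taken as pairs. The difference, group 1 minus group 2, was -1.55 (SE 0.15, adjusted p-value 0.0727). In H its libraries had 68.6, 74.4, 97.3 and 73.2 CPM in mono-culture and 33.9, 26.3, 21.6 and 18.5 CPM in coculture, with no overlap, whereas in T they had 13.2, 12.1, 11.1 and 12.6 CPM and 13.8, 7.88, 9.33 and 8.40 CPM, which overlapped. KPC1 fell by 1.04. The call was lost without clone H, V, K, M or N or without replicate 3 or 4, while the difference itself stayed between -1.72 and -1.45. DESeq2 gave -1.58 and called Adam33, Mmp2 and Adamts7 as well, all more negative in group 1, 4 genes in all beside 1.43% of all genes.

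Genes that act on the same proteinases were described from a list of 31. Of the 25 that could be tested, 11 rose and 5 fell in the common fit, beside 26.8% and 25.2% of all genes. Reck, a membrane-anchored inhibitor of metalloproteinases, rose by 3.52 on the log2 scale (SE 0.50, adjusted p-value 0.00119), from 0.336 to 1.93 CPM. In the plasminogen system, Plau, which encodes a plasminogen activator, rose by 0.67 (adjusted p-value 0.0155). The proprotein convertase genes Furin and Pcsk7 fell by 0.39 and 0.41 (adjusted p-values 0.0258 and 0.00953). Of the partners of ADAM10 and ADAM17, Tspan15 rose by 0.50 and Rhbdf2 by 0.29, whereas Tspan14 and Tspan17 fell by 0.19 and 0.28. Lrp1, a receptor that clears TIMPs and proteinases, fell by 0.40 (adjusted p-value 0.0133). Tll1, an astacin proteinase gene, rose from 0.0532 to 1.95 CPM, and the substrate genes Vcan and Acan rose by 0.52 and 1.15. Serpine2, Spint1 and Bsg also rose.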

How the data were processed

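RNA of 64 libraries, 8 lines by 2 cultures by 4, was sequenced from poly(A) with a strand-specific kit. The deposited table of read counts per gene was made by the authors with featureCounts on mm10, per the processing notes, which also name edgeR. Versions and the strand setting of the counting are not given in the sources used here. The deposited RPKM values are the authors' own, scaled by library total and gene length, and served to compare levels between genes. No column of samples outside the series was used (0).

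Counts were scaled by TMM and tested with edgeR 4.0.16 (R 4.3.3) by the quasi-likelihood method after filterByExpr, with Benjamini-Hochberg adjustment over all genes tested and a threshold of 0.1. The line was the replicate, on counts summed over its 4 libraries, for the common response and for groups; single libraries were fitted for the responses and differences of lines. CPM values are TMM-scaled. All tests were two-sided. A fold against a group at 0 was computed from a floor of 3 counts over the 4 libraries of a line, on library totals, and covers counting error only. Library totals were between 11178721 and 21333683 counts. The scripts were tested on simulated counts.

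Members and lists were chosen with earlier results of these data known. Values by line were meant for TIMP genes, the 10 called genes with the largest common change and the 10 with the widest mono-culture range. They were also meant for the 5 with the smallest p-value for a difference in response, genes called between groups and the 5 highest in RPKM. Several of these have values for some lines only, and Adam18 and Adamts16 have only bounds on their levels. Other members and the pathway genes with values were picked after their values were seen, except that the 31 pathway genes came from a list.

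Alternatives were DESeq2 1.42.0, RLE scaling, other filters and a threshold of 0.05, leaving out replicates or lines, libraries as samples, a replicate block, the series of library numbers as a covariate, and limma 3.58.1 on log2(RPKM + 1) and log2(RPKM + 0.1). Fits on library numbers 1 to 43 or 44 to 64 alone, and one without replicate 2 of KPC1 in coculture, were added after the data were seen. Positions are from GENCODE M21 on GRCm38 and promoters from RefSeq. A planned search of protein motifs was not run. Some items of the genotype and of the pathway list are not reported here. Replicate numbers of the labels were taken to pair mono-culture with coculture libraries of a line where all 4 pairs of deviations from the group means correlated over 0.1, which held in V, M and N.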

Additional observations from a re-analysis of the deposited data

Results flagged for a closer look

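Single libraries stood apart from the other 3 of their group by Dixon's criterion in 28 of 548 groups of 4 libraries over all 51 genes (5.11%), where chance gives about 1 in 20. For the genes described by line there were 14 such libraries, given here in CPM with the range of the other 3. In mono-culture, Adamts9 in V replicate 4 had 104.1 (86.1 to 88.9), Adamtsl3 in V replicate 2 had 29.56 (37.1 to 38.6) and in T replicate 4 had 9.446 (4.63 to 4.79). Timp3 in V replicate 3 had 45.16 (54.6 to 56.1), Adam9 in K replicate 2 had 122.8 (174.6 to 183.7), Mmp2 in H replicate 2 had 88.0 (70.7 to 72.4) and Mmp14 in N replicate 1 had 15.17 (23.4 to 24.2).

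In coculture, Mmp14 in N replicate 1 had 26.81 (47.3 to 49.9), Adam23 in N replicate 4 had 1.883 (0.242 to 0.495) and Mmp15 in KPC1 replicate 3 had 6.868 (2.60 to 2.74). Adam10 and Timp2 in H replicate 1 had 240.7 (185 to 187.6) and 528.6 (458.5 to 469.8), Adam19 in KPC1 replicate 2 had 1.098 (4.02 to 4.44) and Adamts12 in M replicate 3 had 3.739 (1.10 to 1.30). The sum of the 4 defining fibroblast markers was 32.1 CPM in N replicate 1, the lowest of that group, 147 CPM in N replicate 4, the highest, 31.1 CPM in H replicate 1, the lowest, 27.5 CPM in KPC1 replicate 2, the lowest, and 115 CPM in M replicate 3, the highest. In KPC1 replicate 3 the sum was 54.2 CPM, neither the lowest nor the highest of that group. The part of these sums in the levels was not tested.

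The coculture response differed between lines for 5 genes named by the smallest p-values (edgeR quasi-likelihood joint interaction test). The adjusted p-values were 3.93e-17 for Adamts2, from -1.61 in V to 8.93 in T on the log2 scale, and 5.2e-15 for Mmp2, from -0.83 in V to 10.10 in N. They were 3.52e-10 for Adamts14, from -0.38 in H to 3.60 in M, 3.52e-10 for Mmp14, from -0.63 in V to 1.53 in E, and 1.14e-09 for Mmp15, from -3.12 in V to 0.81 in M. The response of Adamts9 differed between group 1 and group 2 by -1.55 on the log2 scale (SE 0.15, adjusted p-value 0.0727).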

How the results depend on the processing

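Over the alternatives, 707 of the values of single genes kept their direction and side of the threshold, 55 lost and 11 gained a call, and none reversed. Of the 14 members that fell in the common response, 9 were called with a filter of 1 CPM, where 38 members could be tested (all genes 28.1%). On library numbers 44 to 64 alone, chosen after the data were seen, 7 of 49 rose and 9 fell (all genes 10.6% and 8.65%). Between the groups in mono-culture, where none was called, DESeq2 called 1 (all genes 0.812%), and leaving out lines gave 0 to 4, with 4 without E (1.42%). Each library as a replicate of its group gave 19 of 45 (33.7%). The libraries of a clone are not independent samples of its group, so that fit does not measure the spread between clones. Nothing about the groups is read from it. For the difference in response between the groups, 1 was called, 0 at a threshold of 0.05, 4 by DESeq2 (1.43%), and 0 to 1 when a replicate or a line was left out. The causes were not tested. The rule found 50 members by CPM of library totals and 47 at a minimum of 1 CPM.

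The replicate numbers of the labels were checked as a pairing: of 32 pairs of mono-culture and coculture libraries with the same line and number, 23 had a correlation of deviations over 0.1, and the median was 0.232. In 23 of 32, a library correlated best with its own number. All 4 pairs were over 0.1 in V, M and N, whose within-line results are given with the block as well. In the other 5 lines at least 1 pair was not, so their numbers were not taken as pairs, although the block added calls in E, H, K and T. With it, 18 rose and 13 fell in E (all genes 33.4% and 30.8%) and 11 and 17 in H (23.8% and 25.1%). In K 17 rose and 12 fell (15% and 10.9%), with Timp2 and Adamts9 among the added falls. In T there were 20 and 12 (32.7% and 32.2%) and in KPC1 10 and 13 (22.6% and 21.9%). With a replicate block, on single libraries, 19 of 49 members rose and 17 fell in the common response (all genes 37% and 38%), 130 and 103 calls within lines were higher and lower (25.7% and 24.3%) beside 118 and 95 without it (23.7% and 21.9%), 41 differed in response between lines (75.4%) and 47 between lines in mono-culture (95.7%). Levels near 0 CPM limit what could be detected for the Adam genes under 1 CPM.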

Other observations

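In a group's 4 libraries, a mean of 0.5 CPM was reached in mono-culture by between 27 members in E and 41 in H, and in coculture by between 35 members in V, N and T and 42 in H. The number rose from mono-culture to coculture in 6 of the 8 lines, most in E from 27 to 37, whereas V went from 38 to 35 and KPC1 had 37 in both. The members were chosen at this same minimum, 6 through coculture groups alone and 5 through mono-culture groups alone. The same count over all genes was not made, so nothing is read from these numbers. Adam22 had counts in 63 libraries and an RPKM above 0 in 30 of them, at most 0.0273 RPKM, so its level is uncertain. For 36 of the 51 genes, the count and RPKM tables were at 0 in the same libraries.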
